A study of Urocitellus parryii with 44 samples.

Results

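The genes described here encode the machinery that carries proteins into mitochondria, folds them there and degrades those that fail. They were measured in brown adipose tissue of arctic ground squirrels (Urocitellus parryii) on mouse cDNA probes. The members were all probes with a single gene symbol that begins with Timm, Tomm, Pmpc, Grpel or Lonp, or that is Clpp, Clpx, Clpb, Hspa9, Hspd1, Hspe1, Trap1, Dnaja3, Dnajc11, Afg3l2, Yme1l1 or Oma1. This gave 109 of 38400 probes, for 41 genes and 89 cDNA clones, and all 109 could be tested. Timm23, Samm50 and Dnajc19 were not analysed here, and 3 probes with several symbols, 1 of them meeting the rule in each case, were not counted. Lonp2 met the rule by its symbol but encodes a peroxisomal protease. Tomm34 encodes a cytosolic partner of chaperones.

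The study compared 5 animals in winter torpor with 3 animals active in summer, taken in August. Torpor is the phase of hibernation in which metabolism and body temperature are greatly lowered. Season and activity state changed together in these animals and cannot be told apart. Total RNA labelled with 33P was hybridised to 4 membranes (MA07, MA08, MA10 and MA11), and the RNA of summer animals 1 and 2 and torpid animal 5 was measured in duplicate from 1 extraction each. The labels give no age, sex or treatment of the animals.

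Most mitochondrial proteins are made in the cytosol with a targeting signal. Receptors and a channel of the outer membrane (the TOM complex) take them in, and the TIM23 channel of the inner membrane passes those with a presequence on to the matrix, pulled by a motor built around the chaperone Hspa9. Carriers of the inner membrane travel with small TIM chaperones to the TIM22 complex. In the matrix the presequence is cut off and chaperonins fold the protein, while proteases such as ClpXP and Lonp1 remove damaged ones. Brown adipocytes are rich in mitochondria and burn fuel in them to make heat.

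Values below are log2 of spot intensity over the column median, so 0 is the level of the middle spot of an array. They are listed in the order of the animals' numbers, and a difference is torpor minus summer with its standard error. A probe was called when its p-value from limma, adjusted over the tested probes of all membranes, was under 0.05. The p-values measure the spread between animals, whose number limits the precision. In bulk tissue, fewer cells of a type and less RNA per cell cannot be told apart.

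Of the 109 member probes, 4 were called, all higher in torpor: 3 probes of Hspa9, the matrix Hsp70, and 1 of Timm17a, a subunit of the TIM23 channel. That is 3.67% of the members, beside 0.309% of the 37848 tested probes called in either direction and 0.259% called higher. Unadjusted p-values were under 0.05 for 17 members that were higher and 4 that were lower, 19.3% against 11.6% of all tested probes. The groups did not overlap in 16 members, with all torpid animals above in 12 and below in 4, or 14.7% against 8.50% of all tested probes. Differences were positive in 70 members and negative in 39 (64.2% positive against 50.0% overall), with a median of 0.17 against 0.000065. The median of the members' values was 0.24, 0.23 and 0.43 in the summer animals and 0.66, 0.52, 0.56, 0.63 and 0.36 in the torpid animals. These medians overlapped, since torpid animal 5 lay below summer animal 3. Without summer animal 1 the median difference was 0.055. With 1 probe per gene it was 0.17 over the brightest probes and 0.042 over the probes of median difference, with 1 and 0 calls. The member probes were brighter than average, with a median signal percentile of 62.7 on their membranes against 50.7 for all tested probes, and the part of brightness in these shares was not tested.

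**Figure D1:**
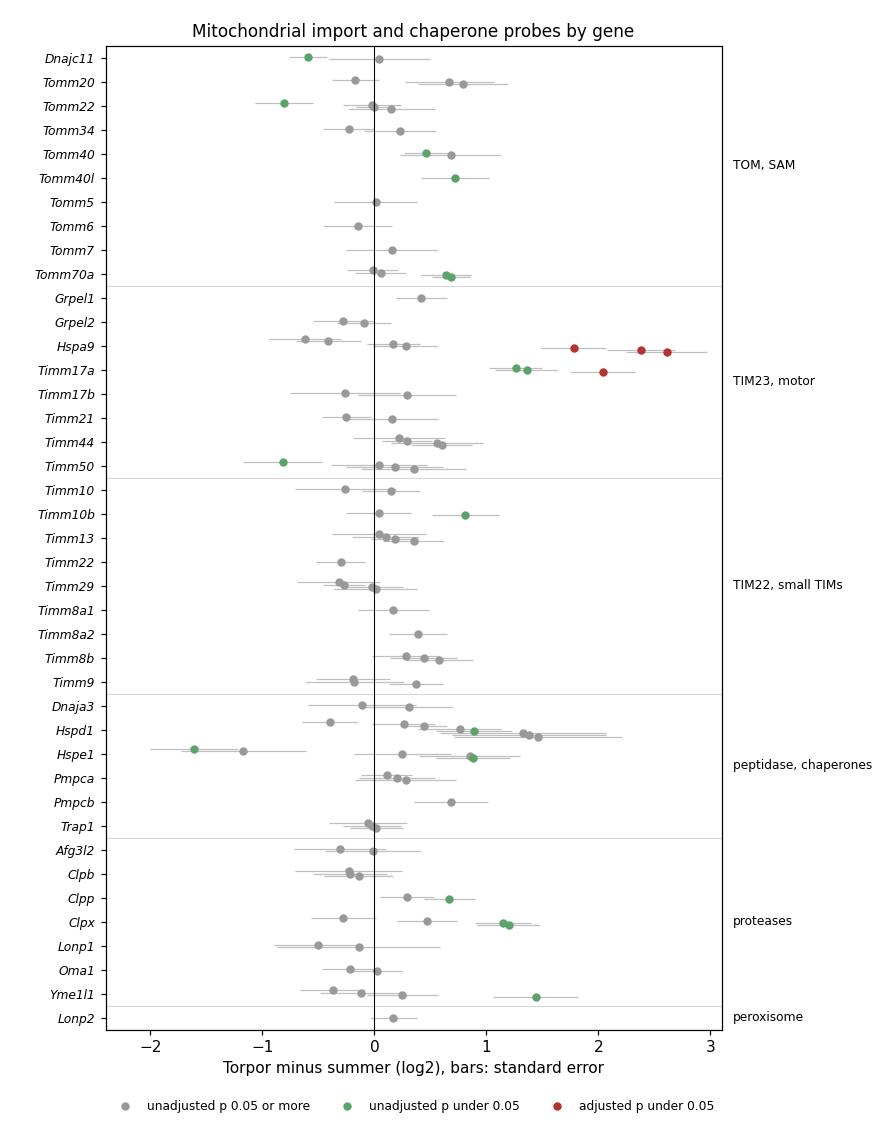
Difference between torpor and summer (log2, x axis) for each of the 109 member probes, by gene and role (y axis), with the standard error as a bar. The 4 called probes (red) belong to Hspa9 and Timm17a, and other probes at an unadjusted p under 0.05 are green. Hspa9, Hspe1 and Clpx are among the many genes with probes on both sides of 0.

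The 4 calls came from 3 clones on MA07 and MA11. MA07 held 28 members with 1 call (3.57%, beside 0.21% of all tested MA07 probes). Their median difference was 0.26, beside -0.021 for all tested probes of that membrane. MA11 held 27 members with 3 calls (11.1%, beside 0.275% of all tested MA11 probes). Their median was also 0.26, beside 0.022 for all tested MA11 probes. MA08 held 28 members with 0 calls and a median of 0.10, beside 0.345% called and a median of 0.0083 for all tested MA08 probes. However, 6 of these members (21.4%) had an unadjusted p under 0.05, beside 10.7% of all tested MA08 probes. On MA10, 0 of 26 members reached an unadjusted p of 0.05 in limma, beside 11.2% of all tested MA10 probes. So 0 members were called there, beside 0.409% of all tested MA10 probes. The medians were 0.043 for these members and -0.0071 for all tested MA10 probes. The median standard error on MA10 was 0.43 for its members and for all its probes alike, against 0.25, 0.27 and 0.30 for the members on MA07, MA08 and MA11.

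**Figure D2:**
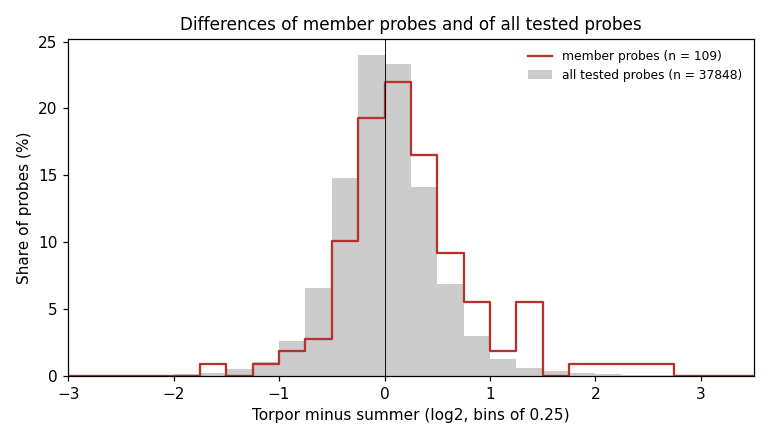
Share of probes (y axis, percent) by difference between torpor and summer (x axis, log2, bins of 0.25) for the 109 member probes (red line) and the 37848 tested probes (grey bars). The member line lies to the right of the bars, with medians of 0.17 and 0.000065, and has 4 probes above 1.75.

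The TIM23 channel and its motor held all 4 calls. Of 25 probes for 8 genes, 18 had positive differences, and the median was 0.28. An unadjusted p under 0.05 in limma was reached by 7 (6 higher, 1 lower), 28.0% beside 11.6% of all tested probes. In 7 probes, of Timm17a, Hspa9 or Timm44, all torpid animals lay above all summer animals, and in 1 all lay below. Groups were thus apart in 32.0%, beside 8.50% of all tested probes.

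Timm17a, one of the paralogous subunits that line the TIM23 channel, was higher in torpor on each of its 3 probes. On MA11 (probe 7859) the summer animals gave 1.89, 1.03 and 1.73 and the torpid animals 4.12, 3.76, 3.09, 3.68 and 3.31. The means were 1.55 ± 0.46 (SD, n = 3) and 3.59 ± 0.40 (SD, n = 5), a difference of 2.04 ± 0.29 or 4.12-fold (limma adjusted p = 0.016). Every torpid animal was above every summer animal by more than the spread within either group. The spot of the same clone on MA08 (probe 3680) gave 1.85, 1.76 and 2.29 in summer and 3.56, 3.26, 3.15, 3.48 and 2.69 in torpor. Its difference was 1.26 ± 0.24 (limma adjusted p = 0.064). A second clone, on MA07 (probe 8423), gave -0.18, -0.66 and -0.76 against 1.13, 0.94, 0.56, 1.35 and 0.16, a difference of 1.36 ± 0.28 (limma adjusted p = 0.088). Neither of these probes was called in any of the 8 fits that left out 1 animal, with adjusted p from 0.051 to 0.14 on MA08 and from 0.057 to 0.20 on MA07. Of 12 other settings, 2 called the MA08 probe (adjusted p from 0.035 to 0.24). The MA07 probe was called in 3 of 12 (adjusted p from 0.03 to 0.28). The groups stood apart on all 3 probes, and torpid animal 5 was the lowest torpid animal on MA07 and MA08. The MA11 call was lost without torpid animal 2 (adjusted p = 0.065), with cyclic loess (1.53, adjusted p = 0.085) and with the second duplicates (adjusted p = 0.065). The paralog Timm17b had differences of -0.26 ± 0.49 (in 4 torpid animals) and 0.29 ± 0.44, both on MA10 and neither called. Its spots lay at signal percentiles of 11.5 and 28.3.

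Hspa9, the ATPase that pulls the precursor inwards and folds it in the matrix, had 7 probes from 3 clones, and these did not behave alike. On MA11, probe 3094 gave 2.07, 0.43 and 1.09 in summer and 4.32, 4.14, 3.57, 3.32 and 3.64 in torpor. The means were 1.19 ± 0.83 (SD, n = 3) and 3.80 ± 0.42 (SD, n = 5), a difference of 2.61 ± 0.36 or 6.09-fold (limma adjusted p = 0.015). Every torpid animal exceeded every summer animal. A second MA11 spot of that clone, probe 5054, gave -1.66 and -1.86 in summer animals 1 and 2 and 0.91, 0.50, 1.03, 0.19 and 0.48 in torpor. Summer animal 3 was empty there, so its difference of 2.38 ± 0.30 (limma adjusted p = 0.013) rests on 2 summer animals. A second clone, on MA07 (probe 4146), gave 0.57, -0.17 and 0.11 against 2.74, 1.59, 1.95, 1.89 and 1.56. Again the groups did not overlap, with a difference of 1.78 ± 0.29 (limma adjusted p = 0.042).

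The other 4 Hspa9 probes were not called, and 3 of them carry the same clones as the called ones. The clone of the MA11 pair was also spotted on MA08, where probe 103 gave 0.24, 0.30 and 0.27 in summer and 0.13, 0.36, -0.48, -1.24 and -0.50 in torpor. There the difference was -0.62 ± 0.32, and at probe 585 it was -0.41 ± 0.29. Among the 1798 clones spotted more than once in the whole series, this clone had the widest range of differences, 3.22, beside a median range of 0.33 and a 99th percentile of 1.44. The clone of the MA07 call gave 0.28 ± 0.29 on MA11 (probe 2734), a range of 1.49 that is wider than in 99.1% of clones. The third clone, on MA08 (probe 4783), gave 0.17 ± 0.24. Thus Hspa9 had called rises on MA07 and MA11 and no call on MA08. Why spots listed under 1 clone differed was not tested. The call of probe 3094 was lost without torpid animal 2 (adjusted p = 0.062) and with cyclic loess (2.10, adjusted p = 0.063). Probe 5054 kept its call in the 6 fits that left out an animal and could be made, with adjusted p from 0.010 to 0.049. These leave its 2 summer values untested, since summer animal 3 was empty and fits without summer animal 1 or 2 could not be made. Summer animal 2 had a value in only 1 of its duplicates there. Of 10 other settings, 9 called probe 5054 (adjusted p from 0.0029 to 0.078). Probe 4146 passed in only 1 of 8 fits that left out 1 animal (adjusted p from 0.027 to 0.10). Of 12 other settings, 6 called it (adjusted p from 0.019 to 0.077).

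**Figure D3:**
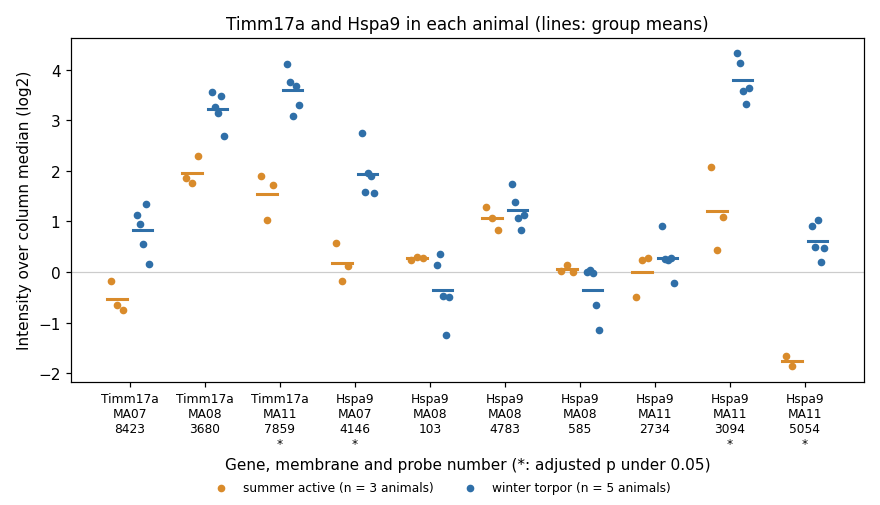
Log2 intensity over the column median (y axis) in each animal for the 3 probes of Timm17a and the 7 of Hspa9 (x axis), with group means as lines, summer in orange and torpor in blue. The 4 called probes carry an asterisk. Torpid animals lie above summer animals on all Timm17a probes and on 3 Hspa9 probes, and the 2 Hspa9 means in torpor are below summer at MA08 103 and 585; summer animal 3 has no value at MA11 5054.

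Of the other TIM23 genes, Timm44, the scaffold that holds Hspa9 at the channel, had 4 positive differences from 0.22 to 0.60, none called and 3 of them on probes without summer animal 3. At MA08 probe 608 its groups did not overlap, at -1.66 and -1.98 in 2 summer animals against -1.33, -1.51, -1.17 and -0.84 in 4 torpid animals, with the rest empty. With a floor at the 10th percentile that difference was -0.0025. Grpel1, a nucleotide exchange factor of Hspa9, gave 0.42 ± 0.23, and its paralog Grpel2 gave -0.28 and -0.094. Timm21, which links TIM23 to the outer membrane, gave -0.25 and 0.16. Timm50, the TIM23 receptor, had 3 differences from 0.042 to 0.35 and 1 of -0.82 ± 0.35 on MA08 (probe 5426, unadjusted p = 0.046 by limma). The latter spot is among the dimmest of its membrane (signal percentile 2.04) and had values in 2 summer and 3 torpid animals. Another spot of its clone, dimmer still (signal percentile 0.354), gave 0.35 ± 0.47, with values in 3 torpid animals.

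The TOM complex and its neighbours, 21 probes for 10 genes, had 0 calls, 13 positive and 8 negative differences and a median of 0.055. By limma, 4 probes were higher and 2 were lower with unadjusted p-values under 0.05, 28.6% beside 11.6% of all tested probes. Tomm70a, the receptor that takes carrier precursors from cytosolic chaperones, had groups apart on 2 of its 4 probes. On MA07 (probe 6030) it gave -0.17, -0.26 and -0.18 in summer and 0.72, 0.38, 0.36, 0.63 and 0.31 in torpor, a difference of 0.68 ± 0.17 (limma adjusted p = 0.16). On MA08 (probe 4517) it gave -1.05, -1.10 and -1.29 against -0.48, -0.66, -0.22, -0.28 and -0.91, a difference of 0.64 ± 0.22 (adjusted p = 0.28). All torpid animals were above all summer animals on both, yet the MA08 clone gave -0.015 on MA11 and another clone gave 0.055 on MA07. Tomm40, the channel itself, gave 0.46 ± 0.20 and 0.68 ± 0.45, and its paralog Tomm40l gave 0.72 ± 0.30. Tomm20, the presequence receptor, gave 0.79 ± 0.40 and 0.67 ± 0.40 on MA10 and -0.17 on MA07.

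Of the 4 member probes with all torpid animals below all summer animals, Tomm22 and Dnajc11 held 1 each. Tomm22, the central receptor, gave -0.051, -0.070 and -0.091 in summer on MA08 (probe 5156) and -0.50, -1.03, -1.59, -0.74 and -0.57 in torpor. Its difference was -0.81 ± 0.26 (limma adjusted p = 0.25), while its other probes, all of other clones, gave -0.0062, -0.024 and 0.15. Dnajc11, a J-domain protein bound to the outer membrane, gave 1.62, 1.83 and 1.68 on MA07 (probe 8008) against 1.12, 0.96, 1.30, 1.27 and 0.99. Its groups were apart by -0.59 ± 0.17 (limma adjusted p = 0.22), and its MA10 probe gave 0.045. The small TOM subunits Tomm5, Tomm6 and Tomm7 gave 0.012, -0.15 and 0.16, and Tomm34 gave 0.23 and -0.23.

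The TIM22 complex and small TIM chaperones had 21 probes for 9 genes, of which 0 were called. Groups were apart in 0 of them, beside 8.50% of all tested probes. By limma, 1 had an unadjusted p under 0.05, 4.76% beside 11.6% of all tested probes. Differences were positive in 14 and negative in 7, with a median of 0.10. The largest was Timm10b, a small TIM of the TIM22 complex, at 0.81 ± 0.30 on MA08 (unadjusted p = 0.019, adjusted p = 0.32 by limma), but the same clone gave 0.038 on MA11. Without summer animal 3, at -1.89 the lowest of -0.74, -0.79 and -1.89 in summer, the MA08 difference was 0.43 (adjusted p = 0.64). Timm8b gave 0.28, 0.44 and 0.58, and Timm13, its relative, gave 4 values from 0.038 to 0.35, so these had only positive differences. Timm8a1 and Timm8a2 gave 0.17 and 0.39. Timm9 and Timm10, the partners that escort carriers across the intermembrane space, had both signs (-0.19, -0.18 and 0.37, and 0.15 and -0.26). Timm22, the carrier channel, gave -0.30 ± 0.22, and the 4 probes of its partner Timm29 ran from -0.32, with values in 3 torpid animals, to 0.013.

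The presequence peptidase and matrix chaperones, 22 probes for 6 genes, had 16 positive and 6 negative differences, a median of 0.27 and 0 calls. Hspd1 (Hsp60) and Hspe1 (Hsp10) form the chaperonin that encloses and folds matrix proteins. They are the only members that neighbour each other in the RefSeq annotation of the squirrel (assembly mUroPar1), where 38 of the 41 symbols were found. Of 8 Hspd1 probes from 4 clones, 7 were positive. They ran from -0.40, on a probe with values in 4 torpid animals, to 1.46. The 3 spots of the clone with the largest differences had a single low animal. MA08 probe 1803 gave 4.78, 0.51 and 3.64 in summer and 5.07, 4.66, 4.19, 4.75 and 3.52 in torpor, a difference of 1.46 ± 0.75. At MA11 probe 6604 the summer values were 4.33, 0.069 and 2.85 and the torpid ones 3.98, 3.64, 3.58, 4.39 and 3.36, a difference of 1.38 ± 0.69. MA08 probe 2285 differed by 1.33 ± 0.74, with 4.91, 0.63 and 3.67 in summer.

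Summer animal 2 was thus far below all others, and summer animal 1 lay among the torpid animals. Both duplicates of summer animal 2 were low, at 0.59 and 0.43 on probe 1803 and 0.38 and -0.24 on probe 6604. Without this animal the differences of probes 1803, 2285 and 6604 were 0.22, 0.11 and 0.20, and without summer animal 1 they were 2.36, 2.25 and 2.33 (limma adjusted p = 0.16, 0.17 and 0.086). Another Hspd1 clone gave 0.89 ± 0.34 on MA07 (probe 147, unadjusted p = 0.025 by limma), from 0.68 without summer animal 2 to 1.28 without summer animal 1. Summer animal 2 was the lowest of the animals on 5 of 8 Hspd1 probes and 3 of 5 Hspe1 probes, against 28 of all 109 members (25.7%) and 13.7% of all tested probes. Repeated spots of the same clone were counted separately in these numbers.

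Hspe1 had clones on both sides of 0. One clone gave 2.0, 0.88 and 2.53 in summer on MA11 (probe 1484) against 2.82, 2.86, 2.71, 2.35 and 2.71, a difference of 0.88 ± 0.33 (unadjusted p = 0.019, adjusted p = 0.32 by limma), and 0.85 ± 0.45 on MA10. With 1 animal left out, these ran from 0.42 and 0.41, both without summer animal 2, to 1.25 on each, without summer animal 3 on MA11 and summer animal 1 on MA10. A second clone gave 0.25 on MA10, and -0.22 without summer animal 2. The third clone went the other way. On MA11 (probe 3904) it gave 0.12, 1.02 and 2.37 in summer and -0.57, -0.32, -0.22, -0.52 and -0.57 in torpor, so that all torpid animals were below all summer animals. The duplicates of summer animal 2 lay apart there, at 2.11 and -0.067. The difference was -1.61 ± 0.39, 3.05-fold lower, and was not called (limma adjusted p = 0.13). With the first and second duplicates it was -1.93 and -1.29 (limma adjusted p = 0.11 and 0.34). With 1 animal left out it ran from -1.01 without summer animal 3, the highest of the summer animals (adjusted p = 0.24), to -2.13 without summer animal 1, the lowest (adjusted p = 0.016), and only the latter of 8 such fits called it. Its MA10 spot gave -1.17 ± 0.56, with values in 3 torpid animals, and -0.79 and -1.86 without the same summer animals.

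**Figure D4:**
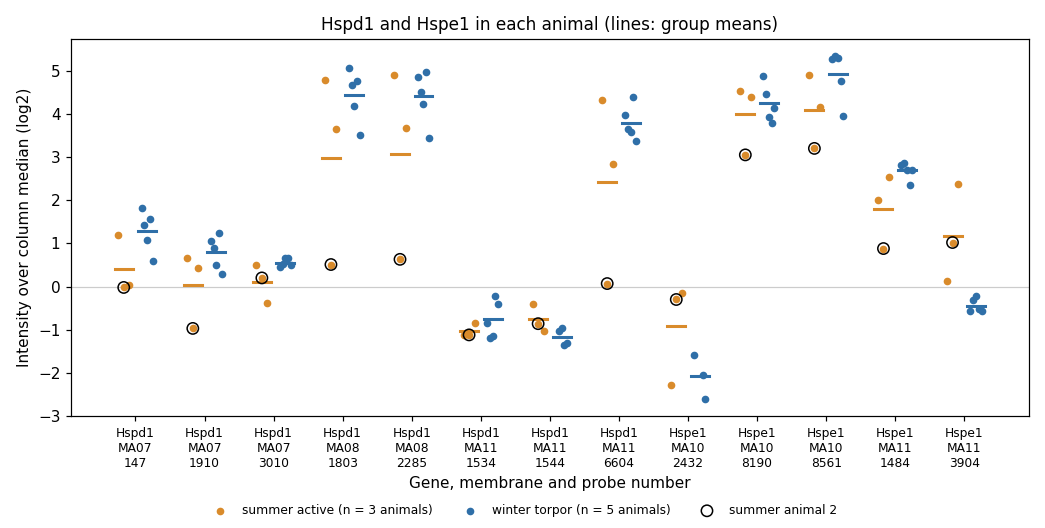
Log2 intensity over the column median (y axis) in each animal for the 8 probes of Hspd1 and the 5 of Hspe1 (x axis), with group means as lines, summer in orange and torpor in blue. Circles mark summer animal 2, which is the lowest animal on 8 of the 13 probes (61.5%), and Hspe1 MA11 3904 is the probe with all torpid animals below.

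The remaining matrix chaperones differed by less than their standard errors. Trap1, the mitochondrial Hsp90, gave -0.019, 0.018 and -0.058, and Dnaja3, a J-domain partner of Hspa9, gave -0.11 and 0.31. Of the subunits of the presequence peptidase, Pmpca gave 0.20, 0.11 and 0.28, and Pmpcb gave 0.68 ± 0.33 (unadjusted p = 0.060 by limma).

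The proteases, 19 probes for 7 genes, had 8 positive and 11 negative differences, a median of -0.12 and 0 calls. Against that median, 4 probes of the ClpXP protease and Yme1l1 were higher at an unadjusted p under 0.05 by limma, and 0 probes were lower. That is 21.1% of the protease probes, beside 11.6% of all tested probes. Clpx is the ATPase that unfolds substrates for the peptidase Clpp, and its 4 probes are of 4 clones. On MA07 (probe 7082) it gave 0.76, 1.16 and 0.86 in summer and 2.37, 2.44, 2.04, 2.46 and 1.29 in torpor, a difference of 1.20 ± 0.28 or 2.29-fold (limma adjusted p = 0.13). On MA08 (probe 1051) it gave -0.48, -0.21 and -0.19 against 0.95, 1.10, 0.96, 1.12 and 0.17, a difference of 1.15 ± 0.25 or 2.23-fold (limma adjusted p = 0.089). All torpid animals were above all summer animals on both probes, and torpid animal 5 was the nearest to summer. Without it both passed, at 1.40 (adjusted p = 0.037) and 1.33 (adjusted p = 0.038), and in the other 7 fits that left out 1 animal neither did, with adjusted p up to 0.25 and 0.18. With the second duplicates MA07 7082 gave 0.89 (adjusted p = 0.41). The 2 MA11 probes of Clpx gave 0.47 ± 0.27 and -0.28 ± 0.29.

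Clpp gave 0.67 ± 0.23 (probe 4817, unadjusted p = 0.015 by limma) and 0.29 ± 0.24, both on MA07 and with overlapping groups. Without summer animal 3 probe 4817 gave 0.44. Yme1l1, an ATP-dependent protease of the inner membrane that faces the intermembrane space, gave 0.46, -1.51 and -0.53 in summer on MA11 (probe 7649) and 1.39, 0.78, 0.74, 1.11 and 0.56 in torpor. These groups did not overlap, with a difference of 1.44 ± 0.38 (limma adjusted p = 0.16). The 3 other clones gave -0.37, -0.12 and 0.25. The spot at -0.12 was among the dimmest of its membrane (signal percentile 0.209) and had values in 2 torpid animals. Without summer animal 2 the difference of probe 7649 was 0.95 (adjusted p = 0.24). Without summer animal 1 it was 1.93 (adjusted p = 0.023), the only such fit with a call. The other mitochondrial proteases lay between -0.50 and 0.025. Lonp1, the main ATP-dependent protease of the matrix, gave -0.50 ± 0.40 and -0.14 ± 0.73, and the inner membrane protease Afg3l2 gave -0.31 and -0.012, the second probe of each in 4 torpid animals. Clpb, a disaggregase, gave -0.14, -0.23 and -0.22, and the stress-activated peptidase Oma1 gave 0.025 and -0.22. Lonp2 gave 0.17 ± 0.21.

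**Figure D5:**
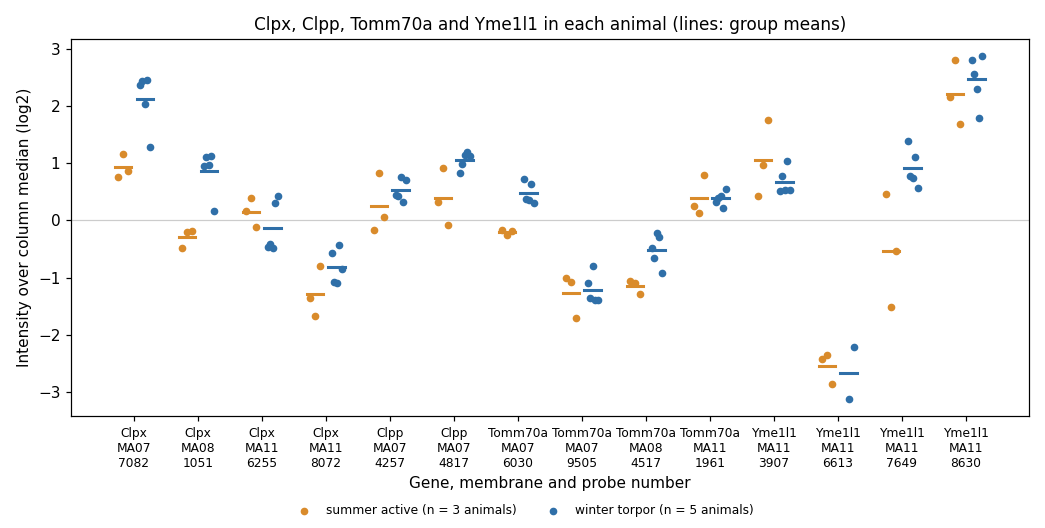
Log2 intensity over the column median (y axis) in each animal for the probes of Clpx, Clpp, Tomm70a and Yme1l1 (x axis), with group means as lines, summer in orange and torpor in blue. Torpid animals lie above summer animals on 2 of 4 Clpx, 2 of 4 Tomm70a and 1 of 4 Yme1l1 probes, and torpid animal 5 is the low blue point at Clpx MA07 7082 and MA08 1051.

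Across the members, probes of the same gene often disagreed. In 16 clones spotted on more than 1 probe, the differences spanned a median of 0.53, and 6 had both signs. The median span over the 1798 repeated clones of the whole series was 0.33. In 30 genes with more than 1 clone, the clone means spanned a median of 0.39, and 15 had both signs. Apart from these spans, the duplicate columns of a split RNA, each a single measurement, differed by a median of 0.45 for summer animal 1, 0.41 for summer animal 2 and 0.32 for torpid animal 5 over the members.

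A list of 19 other genes of import and quality control, with 44 probes, had 28 positive and 16 negative differences, a median of 0.16 and 0 calls. Of these, 1 probe was higher and 2 were lower with an unadjusted p of less than 0.05 by limma. That is 6.82%, below the 11.6% of all tested probes. Groups were apart in 2.27%, beside 8.50% of all tested probes. Hscb, a J-domain protein of iron-sulfur cluster assembly, gave 1.08 ± 0.41 on MA10 (limma adjusted p = 0.31). Chchd4, which carries out oxidative folding in the intermembrane space, gave -0.52 ± 0.21 on MA07 (limma adjusted p = 0.38), and its other probe gave -0.56. Phb2, a subunit of the prohibitin ring that holds inner membrane proteases, gave -1.50 ± 0.47 on MA10 with all torpid animals below all summer animals (limma adjusted p = 0.21), -0.16 on MA07, and 0.50 on MA11 in 2 animals of each group.

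Other gene lists gave a scale for the members' 64.2% of positive differences and median of 0.17. Respiratory chain and ATP synthase genes, with 190 tested probes, had 66.8% positive, a median of 0.20 and 3 calls in limma (1.58%). Mitochondrial ribosomal proteins, with 135, had 45.2% positive, a median of -0.053 and 0 calls. Cytosolic and reticulum chaperones, with 106, had 44.3% positive, a median of -0.065 and 0 calls. An unadjusted limma p under 0.05 was reached by 48 respiratory chain probes (25.3%), 12 ribosomal probes (8.89%) and 23 chaperone probes (21.7%), beside 19.3% of the members and 11.6% of all tested probes. The differences between these lists were not tested.

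Markers of the tissue were measured beside these genes. For brown adipocytes, 5 of 10 listed markers had probes (Cidea, Dio2, Elovl3, Pparg and Ppargc1a; Ucp1 was not analysed here), with differences negative on 7 of 8 probes, 0 calls and a median of -0.40. Their summed intensity, in units of the column median, was 12.8 to 20.5 in summer and 10.6 to 13.7 in torpor. Without the brightest clone, 1 of those of Ppargc1a, it was 10.5 to 13.1 and 8.32 to 9.23. The immune markers, 6 of 6 measured, summed to 19.2 to 32.9 in summer and 31.0 to 42.7 in torpor, with 9 of 14 probes negative. A clone of Lcp1 with 2 spots held 38.6% and 65.7% of this sum, and without it the sums were 13.4 to 17.1 and 11.6 to 13.2. Muscle markers (3 of 8 measured, 3 of 5 probes negative) summed to 4.95 to 8.12 and 6.37 to 14.6. Their brightest clone, of Actn3, held 72.1% and 87.6%, with 1.16 to 2.62 and 0.955 to 1.82 without that clone. Nerve markers (3 of 5 measured, 2 of 5 probes negative) summed to 21.3 to 53.4 and 38.0 to 73.3. Their brightest clone, of Nefm, held 91.2% and 93.7%, with 2.28 to 3.53 and 2.84 to 3.60 without that clone. Endothelial markers (4 of 4, 2 of 6 probes negative) summed to 2.97 to 4.74 and 3.12 to 5.40, and erythroid markers (2 of 3, 3 of 3 probes negative) to 5.37 to 10.6 and 3.23 to 10.3. The brightest endothelial clone, of Pecam1, held 49.6% and 59.3%, and the brightest erythroid clone, of Alas2, held 58.4% and 60.0%. No marker was called or listed at 0 in every animal, and their part in the members' differences was not tested.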

How the data were processed

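The authors deposited 1 table of spot intensity per membrane, with 9600 probes and 11 columns each, and the file values show each column already divided by its median. How spots were scanned, how background was treated and why 3.45% of cells are empty is not given in the sources used here, nor is a genome build. Gene symbols came from the platform annotation and are those of the mouse genes on the membranes. Symbols were looked up in the RefSeq annotation of the squirrel (assembly mUroPar1), whose gene order gave the neighbouring members. No sequences or coordinates are printed.

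The deposited intensity values were taken to log2, with empty cells missing and no floor (23 of 872 animal values of the members, on 13 probes). Duplicate columns were averaged to 1 animal. A limma model (lmFit and eBayes, two-sided, limma 3.58.1, R 4.3.3) was run separately for each membrane on probes measured in 2 or more animals per group. Benjamini-Hochberg adjustment ran over the probes of all 4 membranes together. The fit was tested on simulated data.

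The members and lists were chosen with earlier results of these data known. Probes described singly were the called members, all probes of Hspa9, Hspd1, Hspe1, Trap1, Tomm20, Tomm22 and Tomm70a, up to 4 probes per role group with the smallest p, and all probes of genes with both signs where 1 had an unadjusted p under 0.05. Timm17a on MA07 and MA08 and Timm44 MA08 608 fell outside this rule and were chosen for values by animal after their values were seen. Other members are given by their differences. Alternatives were another scaling (quantile, cyclic loess), a floor at the 10th percentile, dim probes below the 25th percentile left out, values in all 8 animals, an intensity trend, animal weights, a spread per group, 1 duplicate only, adjustment within membranes, a replicate block, 1 probe per gene and each animal left out.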

Additional observations from a re-analysis of the deposited data

Results flagged for a closer look

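In 51 groups of 5 or 4 animals tested over the named member probes, 1 held an animal apart from the rest by Dixon's 95% criterion, which chance gives in about 1 of 20 groups. At Clpx MA08 1051, torpid animal 5 had 0.17, and the nearest torpid animal had 0.95. The gap was 0.822 of the range of the group, against a critical value of 0.71 for 5 animals.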

How the results depend on the processing

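Over 1075 pairs of a named member probe and an alternative, direction and side of the threshold were kept in 990, the call was lost in 20 and gained in 6, and the sign turned in 59, none of them for a called probe. The 117 calls over all membranes became 63 with cyclic loess (46 higher, 17 lower), 238 without dim probes, 176 and 38 with the first and second duplicates, 76 with the floor, 219 with an intensity trend and 17 to 347 with 1 animal left out. The 4 member calls became 1 with cyclic loess, with the second duplicates and over the brightest probe per gene, and 0 over the probe of median difference per gene. They became 6 with the first duplicates and with an intensity trend, and 5 without dim probes and with a spread per group. With 1 animal left out there were 1 to 5: 2 without summer animal 2, 1 without torpid animal 2, and 5 without summer animal 1, of which 1 was lower. The median member difference was 0.042 over the probe of median difference per gene, 0.055 without summer animal 1, and between 0.11 and 0.23 otherwise. The causes were not tested, beyond the fewer animals or probes of a setting.

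The replicate number of the labels does not pair the animals: same-numbered animals correlated between -0.063 and 0.0516 over probes after group means were removed. With it as a block, 32 probes were called, 1 of them a member (Hspa9 MA11 3094), and the differences were -0.037 for Hspd1 MA11 1534, 0.70 for Hspe1 MA10 2432, -0.0097 for Timm50 MA10 5091, 0.10 for Tomm22 MA08 3296 and 0.075 for Trap1 MA07 9151.

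The other turned signs were as follows. Animal weights gave -0.14 for Dnajc11 MA10 6771, -0.13 for Timm50 MA10 5091, 0.0052 for Tomm22 MA07 8139, 0.11 for Tomm22 MA08 3296, -0.044 for Tomm70a MA07 9505 and 0.017 for Yme1l1 MA11 6613. Cyclic loess gave -0.015 for Trap1 MA08 617 and -0.25 for Yme1l1 MA11 8630, and quantile normalization gave -0.017 and -0.086 for these and 0.035 for Yme1l1 MA11 6613. The floor gave -0.23 for Dnajc11 MA10 6771 and -0.051 for Timm50 MA08 5909, and -0.0025 for Timm44 MA08 608, whose alternatives were added after seeing the data, like those of Timm17a on MA07 and MA08 and the marker sums without the brightest clone. First duplicates gave -0.32 for Dnajc11 MA10 6771, 0.10 for Tomm22 MA08 3296, and 0.071, -0.20 and 0.029 for Trap1 on MA07, MA08 and MA11. Second duplicates gave -0.17 for Hspe1 MA10 8190, 0.11 for Tomm22 MA07 8139, -0.25 for Tomm22 MA10 4527, 0.12 for Tomm70a MA11 1961 and 0.47 for Yme1l1 MA11 6613.

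With 1 animal left out, signs turned within these ranges: -0.57 to 0.45 for Dnajc11 MA10 6771, -0.22 to 0.52 for Hspe1 MA10 8190, -0.074 to 0.31 for Lonp2 MA07 7692, -0.13 to 0.81 for Timm50 MA08 5909, -0.19 to 0.60 for Timm50 MA10 3863, -0.32 to 0.35 for Timm50 MA10 5091, -0.081 to 0.043 for Tomm22 MA07 8139, -0.22 to 0.24 for Tomm22 MA08 3296, and -0.14 to 0.45 for Tomm22 MA10 4527. For Tomm70a they were -0.16 to 0.18 (MA07 9505) and -0.15 to 0.19 (MA11 1961), for Trap1 -0.29 to 0.29 (MA07), -0.16 to 0.23 (MA08) and -0.23 to 0.21 (MA11), and for Yme1l1 MA11 8630 -0.015 to 0.54. Signal over background could not be set from these values.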

Other observations

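Summer animal 2, the low animal on the bright Hspd1 spots, was also the lowest of the 8 animals on 5 of 9 probes of Hspa8, the constitutive cytosolic Hsp70. The share over all tested probes was 13.7%, and some of these Hspa8 probes are repeated spots of the same clone. At MA07 probe 8882 Hspa8 gave 2.95, 0.73 and 3.44 in summer and 4.89, 3.93, 2.83, 4.57 and 2.58 in torpor. This animal was the lowest on 1 of 3 probes of Dnajb1, a J-domain partner of Hsp70, on 1 of 11 of Hsp90aa1 and on 0 of 2 of Hspa1b. These genes were chosen after the values of the members had been seen.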
